A study of Homo sapiens and Canis lupus familiaris with 27 samples.

Results

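Deoxynucleotide synthesis is the pathway that supplies the building blocks of DNA, and 9 of its enzymes were followed here by the names RRM1, RRM2, TYMS, DTYMK, DUT, TK1, DCK, CTPS1 and GMPS. Each of the 9 names stood in the count table of every cell line, which listed 23708 genes for the human lines PC-3 and LNCaP and 16028 genes for the canine line CT1258, and all 9 passed the filter on low counts in each line. RNA of these 3 prostate carcinoma cell lines was sequenced after 12 h or after 24 h of exposure to the indolylmaleimide PDA-66 at 15 µM, with 24 h of 0.15% DMSO, the solvent, as the control of both times. Each cell line is 1 established line, PC-3 grown from a bone metastasis and LNCaP from a lymph node metastasis of a human prostate carcinoma and CT1258 from a canine prostate carcinoma, and no genetic change was made in any group. Each group had 3 samples, except that counts of 2 PC-3 DMSO samples were analysed, so that 26 samples entered. Both PDA-66 groups of a line were compared with the same DMSO samples. In the comparisons after 12 h, PDA-66 therefore cannot be told apart from the different time of the controls. Between 24 h and 12 h, time of exposure and time in culture cannot be told apart.

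Cells make most deoxynucleotides by reducing ribonucleotides. Ribonucleotide reductase, built from a large subunit (RRM1) and a small subunit (RRM2), carries out this step, and the amount of the small subunit follows the cell cycle with a peak in S phase. A separate branch makes thymidine nucleotides: DUT turns dUTP into dUMP, TYMS methylates dUMP to dTMP, and DTYMK phosphorylates dTMP. TK1 and DCK salvage thymidine and deoxycytidine, while CTPS1 and GMPS make CTP and GMP, the ribonucleotides from which this route starts.

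The PC-3 samples held 14650839 to 18091755 counts each, the LNCaP samples 11923105 to 14741883 and the CT1258 samples 7203534 to 20976950, where the DMSO samples were 2.64 times as deep as its PDA-66 samples. The spread between samples was larger in LNCaP (biological coefficient of variation 0.240) than in PC-3 (0.0972) and CT1258 (0.100). LNCaP PDA-66 12 h replicate 2 stood apart, at a mean leading log2 fold change distance of 2.19 from its group, compared with 1.53 and 1.58 for the other samples of that group. Its COL1A1, a fibroblast collagen, was at 125 CPM, compared with 18.5 to 27.9 CPM in the other LNCaP samples. The fibroblast markers DCN and LUM were at most at 0.329 and 0.411 CPM in LNCaP. Endothelial VWF was at 14.5 CPM in this replicate, above the other 12 h samples (4.85 and 5.52 CPM) and the 24 h samples (6.18 to 7.28 CPM). The DMSO samples had more VWF (22.9 to 40.2 CPM). The log2 fold changes of the 9 genes in LNCaP after 12 h are therefore given with and without this sample, whose part in the results was not tested further. The luminal prostate markers were present in LNCaP (6 of 6 reached 1 CPM, summed 2840 to 3980 CPM) and largely absent in PC-3 (1 of 6, summed 2.62 to 6.87 CPM). In CT1258, 2 of the 5 listed luminal markers reached 1 CPM, TMPRSS2 was at 0, the listed epithelial marker EPCAM was at most 0.262 CPM, and of the fibroblast markers LUM was at 262 to 429 CPM and COL1A1 at most at 0.133 CPM.

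The promoters of RRM2 and TYMS are shown because both genes rose in PC-3 and CT1258. Those of TK1 and DUT are shown because their responses differed between cell lines, as did that of RRM2. RRM1 also rose in PC-3 and CT1258, and the responses of DTYMK, CTPS1 and GMPS also differed between cell lines. The windows of these genes are not shown. Each line gives 300 bases of the human genome (RefSeq, GRCh38.p14), from 250 bases before to 50 bases after an annotated start, in the direction of the gene. Capitals mark letters of 3 elements known from cell cycle promoters and searched on both strands, namely E2F motifs (TTTCCCGC, TTTCGCGC, TTTGCCGC or TTTGGCGC), the NF-Y box (CCAAT) and the cell cycle homology region (CHR; TTTGAA or TTCGAA).
RRM2, chr2:10122489-10122788, plus strand: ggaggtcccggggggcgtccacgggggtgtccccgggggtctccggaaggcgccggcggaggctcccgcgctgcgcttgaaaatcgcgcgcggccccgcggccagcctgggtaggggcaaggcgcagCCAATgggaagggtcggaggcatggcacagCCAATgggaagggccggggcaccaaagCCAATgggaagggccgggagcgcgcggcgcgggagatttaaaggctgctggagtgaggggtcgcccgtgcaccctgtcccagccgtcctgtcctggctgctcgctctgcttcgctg
TYMS, chr18:657403-657702, plus strand: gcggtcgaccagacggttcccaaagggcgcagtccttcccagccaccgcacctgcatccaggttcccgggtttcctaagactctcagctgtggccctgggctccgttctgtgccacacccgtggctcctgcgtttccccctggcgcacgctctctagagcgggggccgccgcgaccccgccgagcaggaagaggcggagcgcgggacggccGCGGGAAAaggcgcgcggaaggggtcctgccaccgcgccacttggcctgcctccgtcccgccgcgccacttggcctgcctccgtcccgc
TK1, chr17:78187003-78187302, minus strand: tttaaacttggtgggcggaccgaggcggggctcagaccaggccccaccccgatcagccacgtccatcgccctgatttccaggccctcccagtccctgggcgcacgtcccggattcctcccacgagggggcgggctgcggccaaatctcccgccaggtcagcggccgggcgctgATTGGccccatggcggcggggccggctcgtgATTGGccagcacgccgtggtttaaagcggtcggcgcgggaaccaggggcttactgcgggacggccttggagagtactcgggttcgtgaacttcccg
DUT, chr15:48331947-48332246, plus strand: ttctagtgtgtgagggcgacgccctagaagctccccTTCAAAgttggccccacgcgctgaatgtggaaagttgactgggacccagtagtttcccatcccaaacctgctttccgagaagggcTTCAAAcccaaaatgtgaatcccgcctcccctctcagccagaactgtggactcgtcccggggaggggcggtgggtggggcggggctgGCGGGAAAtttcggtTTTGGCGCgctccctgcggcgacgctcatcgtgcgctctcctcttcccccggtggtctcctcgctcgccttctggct
The RRM2 window held 3 NF-Y boxes, the TK1 window 2 NF-Y boxes on the opposite strand, the TYMS window 1 E2F motif on the opposite strand, and this DUT window 2 E2F motifs and 2 CHR elements. No marked letters overlapped. The windows at the other annotated starts of DUT and TK1 held none of these elements, and the other RRM2 window held 1 NF-Y box. Over all 9 genes, which had 15 such windows because some have several starts, 3 genes held an E2F motif (TYMS, DUT and DCK), 4 an NF-Y box (RRM1, RRM2, TK1 and DTYMK) and 3 a CHR (RRM1, DUT and DTYMK). No window of CTPS1 or GMPS held any of these elements, while each window shown held at least 1. Of 35114 promoter windows of the same length, 3.31% held an E2F motif, 34.6% an NF-Y box and 16.4% a CHR. These shares are per window, while a gene was counted if any of its windows matched, so the 2 are not alike. These matches describe letters only, and the promoters of the canine genes were not analysed here.

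In the annotation of GRCh37, RRM1 lies at chr11:4116029-4160162, RRM2 at chr2:10262866-10271541, TYMS at chr18:657653-673578 and DTYMK at chr2:242615162-242626230. DUT is at chr15:48623626-48635570, TK1 at chr17:76170172-76183133, DCK at chr4:71859366-71896631, CTPS1 at chr1:41445368-41478237 and GMPS at chr3:155588439-155661809. Some exons are shared with other genes. ENOSF1 covers 60.0% of the exon bases of TYMS on the opposite strand, and MOB1B covers 7.94% of those of DCK on the same strand. Whether counting used the strand is not given in the sources used here, so reads of such pairs cannot be told apart with certainty.

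In DMSO samples, the human lines could be ranked per exon length, as CPM (reads per 1e6 reads counted) per kilobase of the main transcript. TK1 had the highest level in PC-3 (89.8 ± 8.72, SD, n = 2) and GMPS the lowest (11.9 ± 0.555). RRM2 (55.2 ± 9.11), CTPS1 (51.8 ± 4.88) and RRM1 (50.8 ± 9.79) overlapped in PC-3 and had no certain order. In LNCaP, TK1 (59.0 ± 21.7, n = 3) and RRM1 (52.7 ± 14.7) headed the order with overlapping samples, and GMPS was again lowest (11.9 ± 0.697), with no overlap with TYMS, the next gene (19.0 ± 6.57). The order depends on exon lengths from GENCODE, while the study counted RefSeq genes. Without division by length, GMPS (103 ± 6.02 CPM) was above TYMS (30.6 ± 10.6 CPM) in LNCaP. Between the DMSO samples of PC-3 and LNCaP, 1 of the 9 genes differed at an adjusted p-value under 0.001, where 40.8% of all genes tested did. CTPS1 was 0.87 ± 0.14 (SE) higher in PC-3 on the log2 scale (edgeR adjusted p = 3.96e-05), but 0.77 and no longer past 0.001 without PC-3 DMSO replicate 2, and RRM2 was 0.70 ± 0.28 higher (edgeR adjusted p = 0.0355), at 0.05, where 63.6% of all genes differed. TYMS (log2 difference -0.03), RRM1 (-0.02) and GMPS (0.03) were at nearly the same level in the DMSO samples of both lines, each with a difference below its standard error.

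After PDA-66 exposure, RRM1, RRM2 and TYMS were higher in every cell line at both times, at an adjusted p-value under 0.001 in PC-3 and CT1258 and under 0.05 in LNCaP, and no member fell at 0.001. In PC-3, 5 of the 9 genes were DEG (adjusted p-value under 0.001) after 12 h and 5 after 24 h, all higher, namely RRM2, RRM1, TYMS, TK1 and GMPS at both times. Of all genes tested in PC-3, 27.6% were DEG after 12 h and 19.3% after 24 h, with 13% and 8.88% higher. In CT1258, 5 were DEG and higher at each time as well, namely DCK, RRM1, DUT, RRM2 and TYMS, where 44.3% of all genes were DEG after 12 h and 33.8% after 24 h, with 22.2% and 16.6% higher. In LNCaP, 0 of the 9 passed 0.001, where 1 of all 13156 genes tested did after 12 h (0.0076%) and 0 after 24 h, although all 9 had an unadjusted p-value under 0.05 at both times (3950 and 2599 of all genes). At an adjusted p-value under 0.05, 7 were higher in LNCaP after 12 h and 4 after 24 h, where 9.14% and 2.92% of all genes passed, with 4.52% and 1.35% higher. The median log2 fold change of the 9 genes at 12 h, followed by 24 h, was 0.65 and 0.64 for PC-3, 1.12 and 0.90 for LNCaP, and 0.67 and 0.57 for CT1258. Over all genes tested this median lay between -0.01 and 0.03. Between 24 h and 12 h, 0 of the 9 genes differed at 0.001 in edgeR, against 1.41% of all genes for PC-3, 0% for LNCaP and 2.13% for CT1258. At 0.05 this was 1 gene in PC-3 (10.1% of all genes), 0 in LNCaP (0%) and 2 genes in CT1258 (19.3%). Unadjusted p-values under 0.05 from edgeR were found for 2, 1 and 3 of the 9. Among all genes tested they were found for 3377 of 13777, 837 of 13156 and 3214 of 9886. As these are counts from bulk RNA, more cells in a phase of the cell cycle and more RNA per cell cannot be told apart.

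**Figure D1:**
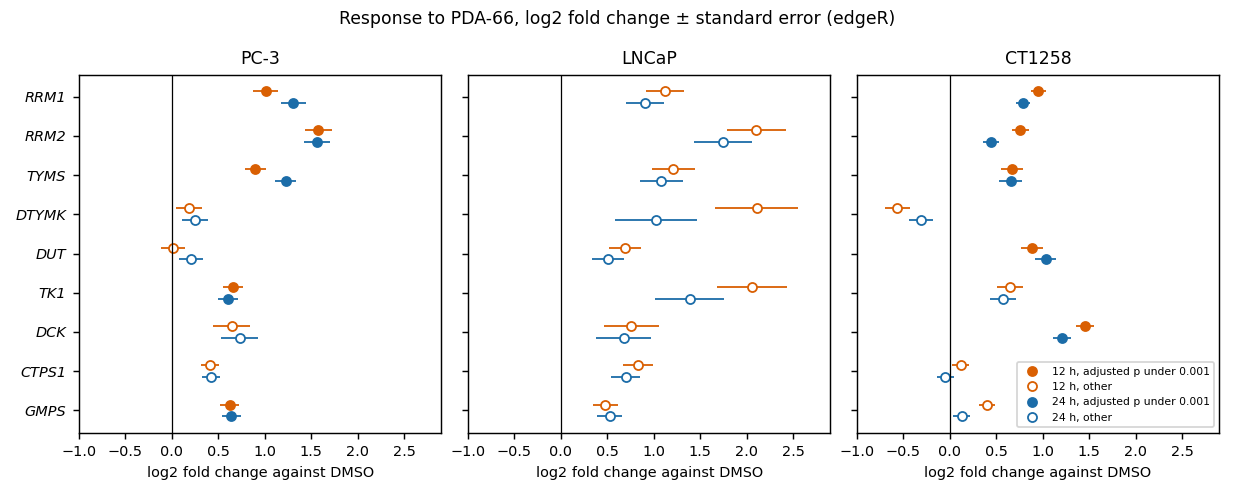
Log2 fold change of the 9 genes after 12 h (orange) and 24 h (blue) of PDA-66 against DMSO in each cell line, from edgeR. Bars are standard errors and filled points have an adjusted p-value under 0.001; DCK leads in CT1258 (1.46 after 12 h) and RRM2 in PC-3 (1.58), while DTYMK lies below 0 in CT1258.

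Both subunits of ribonucleotide reductase rose in PC-3 and CT1258 at 0.001 and in LNCaP at 0.05. Normalised counts of RRM2 in PC-3 were 201 and 159 CPM in the DMSO samples, 551, 528 and 531 CPM after 12 h, and 615, 537 and 442 CPM after 24 h. The PDA-66 samples were all above the controls, and RRM2 rose 2.98-fold after 12 h (log2 fold change 1.58 ± 0.14, SE; edgeR adjusted p = 1.27e-06) and 2.95-fold after 24 h. RRM1 in PC-3 had 181 and 138 CPM in DMSO, between 313 and 326 CPM after 12 h and between 347 and 444 CPM after 24 h. On the log2 scale RRM1 rose by 1.01 ± 0.13 at 12 h (edgeR adjusted p = 2.92e-05) and by 1.31 ± 0.13 at 24 h (6.69e-06).

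In LNCaP, RRM2 was at 124, 156 and 58.2 CPM in the DMSO samples and at 538, 388 and 529 CPM after 12 h, with 348, 403 and 384 CPM after 24 h. DMSO replicate 3 was low for both subunits (RRM1 112 CPM, compared with 191 and 194 CPM), and all PDA-66 samples lay above all controls. Read at 0.05, RRM2 rose after 12 h by 2.10 ± 0.32 on the log2 scale (edgeR adjusted p = 0.00817), or by 2.25 without replicate 2, and by 1.74 ± 0.31 at 24 h (0.0291). RRM1 rose by 1.12 ± 0.20 (edgeR adjusted p = 0.0134; 1.14 without replicate 2) and 0.90 ± 0.20 (0.0470), with 358 to 365 CPM in the 12 h samples.

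In CT1258, RRM2 was at 119, 137 and 124 CPM in the DMSO samples, at 218, 223 and 202 CPM after 12 h and at 161, 189 and 167 CPM after 24 h. Both subunits rose here, RRM1 by 0.95 ± 0.08 at 12 h and 0.79 ± 0.08 at 24 h on the log2 scale, beside 0.76 ± 0.09 and 0.44 ± 0.09 for RRM2 (edgeR adjusted p = 6.48e-04 for the last). The difference of RRM2 from 12 h to 24 h in CT1258 was -0.32 ± 0.09 on the log2 scale (edgeR adjusted p = 0.0253), which passed 0.05 but not 0.001. RRM2 at 24 h had an edgeR adjusted p-value above 0.001, up to 0.00642, in 8 of the 9 fits that left out 1 CT1258 sample.

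The balance of the subunits, as RRM2 counts per RRM1 count within a sample, lay higher after exposure in both human lines and lower in CT1258. It was 1.11 and 1.15 in the PC-3 DMSO samples, 1.63 to 1.70 at 12 h and 1.27 to 1.38 at 24 h. LNCaP samples had 0.518 to 0.807 in DMSO, 1.09 to 1.48 at 12 h, with the lowest value in replicate 2, and 1.19 to 1.24 at 24 h. In CT1258 it was between 0.881 and 0.964 in DMSO and lower in every PDA-66 sample, at 0.803 to 0.824 after 12 h and 0.681 to 0.802 after 24 h. These ratios are not corrected for gene length and are given as a description. RRM2B, the p53-regulated alternative small subunit, had log2 fold changes of 0.35 and 0.44 for PC-3 and of -0.60 and -0.27 for LNCaP, which did not pass 0.001 in PC-3 or 0.05 in LNCaP. It rose in CT1258, from 32.2 ± 2.50 CPM to 53.6 ± 4.91 CPM after 12 h (SD, n = 3; log2 fold change 0.73 ± 0.12, edgeR adjusted p = 9.79e-05) and to 53.6 ± 8.14 CPM after 24 h.

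**Figure D2:**
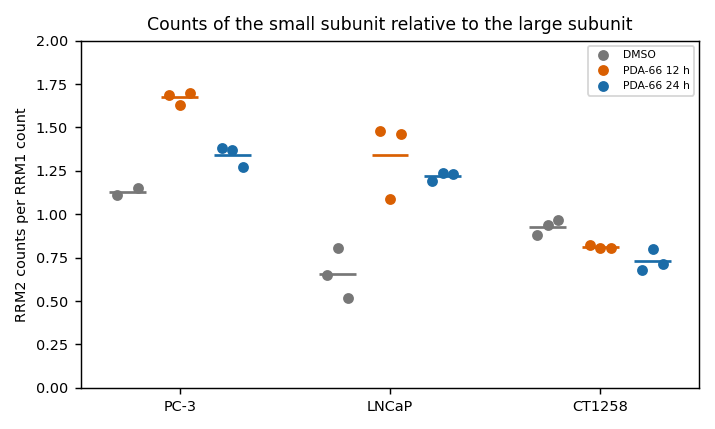
RRM2 counts divided by RRM1 counts in each sample (points) with group means (lines), by cell line and treatment. The PDA-66 samples lie above the DMSO samples in PC-3 and LNCaP and below them in CT1258.

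Among the enzymes of the thymidylate branch, TYMS rose in PC-3 and CT1258 and passed 0.05 in LNCaP. In PC-3 it was at 30.3 and 28.7 CPM in the DMSO samples, at 54.5, 58.4 and 51.8 CPM after 12 h, and at 77.0, 65.0 and 64.7 CPM after 24 h. TYMS rose by 0.90 ± 0.11 at 12 h and 1.23 ± 0.11 at 24 h on the log2 scale (edgeR adjusted p = 2.38e-05 and 3.54e-06), and TYMS was the 1 member that differed between 24 h and 12 h in PC-3 at 0.05 (0.33 ± 0.10, edgeR adjusted p = 0.0479). ENOSF1, which shares exon bases with TYMS on the other strand, moved the other way in PC-3, from 75.7 ± 15.3 CPM (SD, n = 2) to 35.9 ± 1.17 CPM after 12 h (n = 3; log2 fold change -1.07 ± 0.12, edgeR adjusted p = 6.62e-06).

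In LNCaP, TYMS was at 42.5, 26.8 and 22.4 CPM in DMSO and at 71.8, 63.3 and 77.3 CPM after 12 h, which is 1.21 ± 0.23 on the log2 scale (edgeR adjusted p = 0.0159; 1.29 without replicate 2), followed by 1.08 ± 0.23 after 24 h (0.0423). In CT1258, it was at 46.1, 67.7 and 49.9 CPM in DMSO and within a narrow range of 84.8 to 89.0 CPM in all 6 PDA-66 samples. The rise of TYMS was 0.67 ± 0.12 after 12 h (edgeR adjusted p = 2.18e-04) and 0.66 ± 0.12 after 24 h (3.44e-04). Leaving out 1 CT1258 sample put its adjusted p-value above 0.001 in 4 of 9 fits at 12 h and in 5 of 9 fits at 24 h. SHMT1, which supplies one-carbon folate to TYMS, rose in PC-3 by 0.89 ± 0.11 after 12 h and 0.81 ± 0.11 after 24 h (edgeR adjusted p = 2.32e-05 and 7.97e-05).

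DUT, which keeps uracil out of DNA, rose in CT1258 and did not pass the threshold in PC-3. In CT1258 it was at 46.3, 62.0 and 45.8 CPM in the DMSO samples, at 98.2, 102 and 85.0 CPM after 12 h and at 104, 106 and 105 CPM after 24 h. The groups did not overlap, and DUT rose by 0.89 ± 0.12 after 12 h (edgeR adjusted p = 1.28e-05) and 1.03 ± 0.12 after 24 h (5.67e-06). In PC-3 the values were 69.8 and 85.4 CPM in DMSO, between 75.1 and 81.8 CPM after 12 h and between 76.0 and 104 CPM after 24 h. These groups overlapped, with a log2 fold change of 0.01 ± 0.13 (edgeR adjusted p = 0.935), which changed sign without DMSO replicate 2 (-0.12), and of 0.21 ± 0.13 after 24 h. In LNCaP, DUT was at 75.3, 85.3 and 68.2 CPM in DMSO and at 149 and 121 CPM after 12 h in replicates 1 and 3, with replicate 2 lower but above the controls, and a rise of 0.69 ± 0.18 on the log2 scale at 0.05 (edgeR adjusted p = 0.0403), or 0.83 without replicate 2. After 24 h, DUT in LNCaP had a log2 fold change of 0.51 ± 0.18 that missed 0.05 (edgeR adjusted p = 0.146).

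DTYMK, the kinase that acts on dTMP, had log2 fold changes on both sides of 0. In CT1258 it was at 117, 170 and 122 CPM in DMSO, at 86.1, 84.8 and 106 CPM after 12 h and at 118, 108 and 105 CPM after 24 h. The 12 h samples lay below the controls, with a log2 fold change of -0.56 ± 0.13 (edgeR adjusted p = 0.00184) that missed 0.001, and the 24 h samples overlapped with them (-0.31 ± 0.13). In LNCaP it was at 38.7, 27.1 and 26.8 CPM in DMSO and at 71.6, 252 and 75.3 CPM after 12 h, where replicate 2 was the high value. The log2 fold change after 12 h was 2.11 ± 0.45 (edgeR adjusted p = 0.0230) and 1.25 without replicate 2 (6.74e-04), and the 24 h samples had 62.8, 60.3 and 65.6 CPM. In PC-3 DTYMK did not pass either threshold (0.18 ± 0.14 and 0.25 ± 0.14).

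**Figure D3:**
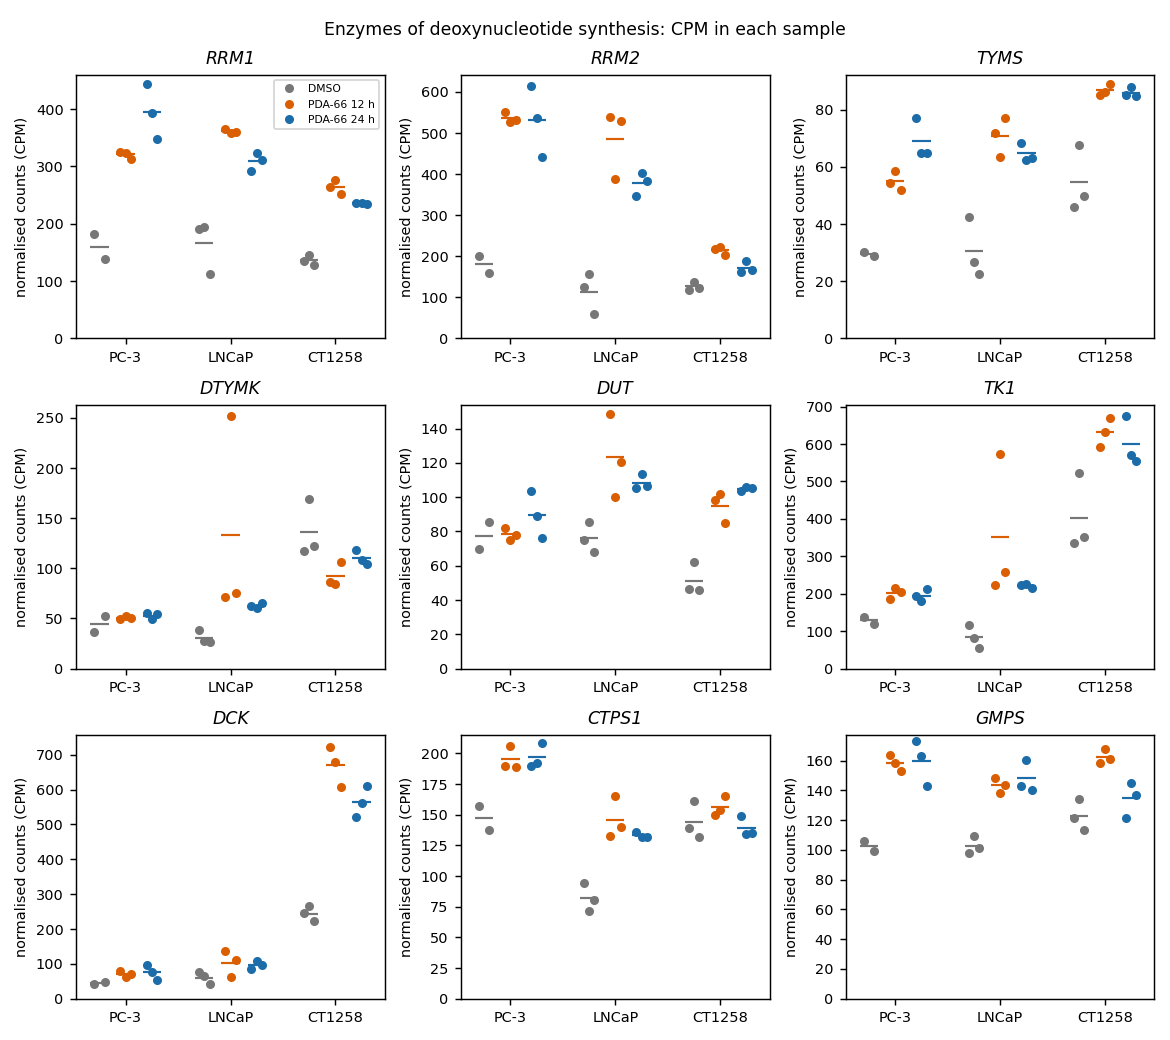
Normalised counts (CPM) of the 9 genes in each sample (points) with group means (lines), by cell line, for DMSO (grey) and PDA-66 after 12 h (orange) and 24 h (blue). LNCaP 12 h replicate 2 is the single high point of DTYMK (252 CPM) and of TK1 (573 CPM), and CT1258 has the highest DCK, with 608 to 723 CPM after 12 h.

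Of the salvage kinases, TK1 passed 0.001 in PC-3 and DCK in CT1258. The log2 fold change of TK1 after 12 h was nearly the same in PC-3 and CT1258, with a difference of -0.002 ± 0.38. The response of DCK differed between no lines at 0.05, with edgeR adjusted p-values of 0.0697 or more. The lowest of these was for PC-3 against CT1258 after 12 h, with a log2 difference of -0.83 ± 0.34. Standard errors of such differences come from a fit with 1 spread per gene over all 3 lines, LNCaP included. The missing call therefore does not show that the responses were alike. TK1 in PC-3 was at 137 and 120 CPM in DMSO, at 187, 217 and 205 CPM after 12 h, and at 193, 180.0 and 212 CPM after 24 h. Its log2 fold change was 0.66 ± 0.11 after 12 h (edgeR adjusted p = 2.15e-04) and 0.60 ± 0.11 after 24 h (5.95e-04), but 6 of the 8 fits that left out 1 PC-3 sample put the adjusted p-value at 24 h above 0.001, up to 0.00226, as did 2 of 8 at 12 h. In LNCaP it was at 117, 81.7 and 54.9 CPM in DMSO and at 224, 573 and 258 CPM after 12 h. The log2 fold change of 2.06 ± 0.38 (edgeR adjusted p = 0.0141) was 1.52 without replicate 2, where it passed 0.05 as well (0.00142), and at 24 h it was 1.39 ± 0.37 and missed 0.05 (0.0771). In CT1258, TK1 was at 336, 523 and 351 CPM in DMSO and between 593 and 669 CPM after 12 h, or 0.65 ± 0.14 on the log2 scale (edgeR adjusted p = 0.00110) just outside 0.001, or 0.87 without DMSO replicate 2 (3.20e-09). TK2, the mitochondrial thymidine kinase, fell in PC-3 at 12 h (log2 fold change -0.49 ± 0.09, edgeR adjusted p = 5.24e-04), with 0.03 ± 0.09 after 24 h.

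DCK had the largest rise of all members in CT1258. It was at 245, 265 and 223 CPM in the DMSO samples, at 723, 680.2 and 608 CPM after 12 h and at 521, 562 and 611 CPM after 24 h. The PDA-66 samples were all far above the controls, and DCK rose by 1.46 ± 0.10 at 12 h (edgeR adjusted p = 3.19e-08) and 1.21 ± 0.10 at 24 h on the log2 scale. In PC-3, DCK had 42.3 and 49.0 CPM in DMSO and between 63.0 and 80.4 CPM after 12 h, which was 0.65 ± 0.20 on the log2 scale (edgeR adjusted p = 0.0132). In LNCaP, 12 h replicate 2 had 63.4 CPM of DCK, within the control range of 42.4 to 76.3 CPM, while the other 12 h samples had 136 and 110 CPM. The log2 fold change of DCK in LNCaP was 0.76 ± 0.29 (edgeR adjusted p = 0.125), or 1.02 without that sample (0.00543). DGUOK, the mitochondrial kinase of purine deoxynucleosides, did not pass 0.001 in PC-3 or CT1258 or 0.05 in LNCaP. MOB1B shares exon bases with DCK in the human annotation, and the canine annotation was not examined. After 12 h, MOB1B had log2 fold changes of 0.55 ± 0.13 in PC-3 (edgeR adjusted p = 0.00284) and -0.65 ± 0.35 in LNCaP. It rose in CT1258 after 12 h by 0.71 ± 0.14 (edgeR adjusted p = 4.21e-04).

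CTPS1 and GMPS are the synthetases at the ribonucleotide level. GMPS passed 0.001 in PC-3, and CTPS1 passed 0.05 in both PC-3 and LNCaP. Neither response differed between these 2 lines at 0.05. GMPS in PC-3 was at 106 and 99.4 CPM in DMSO, between 153 and 164 CPM after 12 h and between 143 and 174 CPM after 24 h. It rose by 0.62 ± 0.10 after 12 h and 0.64 ± 0.10 after 24 h (edgeR adjusted p = 2.08e-04 and 2.53e-04), but 3 of 8 fits at 12 h and 2 of 8 at 24 h that left out 1 PC-3 sample put it above 0.001. In CT1258, GMPS was higher after 12 h by 0.40 ± 0.09, an adjusted p-value of 0.00117 in edgeR, and by 0.13 ± 0.09 after 24 h. The difference between 24 h and 12 h in CT1258 was -0.27 ± 0.09 (edgeR adjusted p = 0.0496), so that GMPS and RRM2 were the 2 members lower at 24 h than at 12 h at 0.05, where 10.2% of all genes were. In LNCaP the edgeR adjusted p-values of GMPS were 0.0533 at a log2 fold change of 0.48 (0.51 without 12 h replicate 2) and 0.0689 at 0.53, although the samples of 12 h (139 to 149 CPM) and 24 h (140.3 to 161 CPM) did not overlap with the controls (98.0 to 110 CPM).

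CTPS1 rose in LNCaP at 0.05, with 94.1, 71.8 and 80.2 CPM in DMSO, 133, 165 and 140 CPM after 12 h and 132 to 136 CPM after 24 h. The log2 fold change was 0.83 ± 0.16 (edgeR adjusted p = 0.0154; 0.73 without 12 h replicate 2) and 0.70 ± 0.16 (0.0474). In PC-3 it was 0.41 ± 0.10 and 0.42 ± 0.10 (edgeR adjusted p = 0.00334 and 0.00352). In CT1258 the groups overlapped at both times (0.12 ± 0.09 and -0.05 ± 0.09). CTPS2, the second CTP synthetase, did not pass the threshold in PC-3 or LNCaP. IMPDH2, which makes the substrate of GMPS, fell in CT1258 from 659.5 ± 76.5 CPM to 334 ± 18.9 CPM after 12 h (SD, n = 3; log2 fold change -0.98 ± 0.09, edgeR adjusted p = 5.52e-07). IMPDH1 also fell in CT1258 after 24 h (-0.57 ± 0.10, edgeR adjusted p = 1.94e-04).

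In LNCaP, leaving out 12 h replicate 2 made 9 of the 9 genes higher at 0.05 after 12 h and 9 after 24 h, where 14.1% and 13.5% of all genes were higher in that fit. At 0.001, RRM2 and DTYMK passed after 12 h without it, both higher, where 1.21% of all genes were higher. With all samples, 8 of the 9 genes did not overlap with the controls after 12 h and were higher, the exception being DCK, and 9 after 24 h, where 13.5% and 23.1% of all genes did so. The PC-3 samples gave 7 and 7 higher genes without overlap (35.5% and 30.6% of all genes) and the CT1258 samples 7 and 6 (36.1% and 33.1%), with DTYMK lower without overlap after 12 h (36.6% of all genes lower). Without CT1258 DMSO replicate 2, in which all 9 genes were at their highest among the controls, 7 members were higher and DTYMK lower at 0.001 after 12 h, against 28.1% of all genes higher in that fit. Of the 9934 genes tested in that fit, 2774 were lower.

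**Figure D4:**
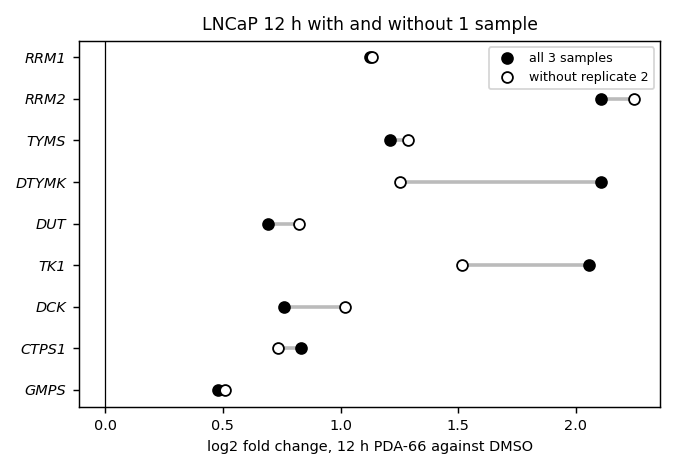
Log2 fold change of the 9 genes in LNCaP after 12 h with all 3 samples (filled) and without replicate 2 (open), joined by grey lines. DTYMK moves from 2.11 to 1.25 and TK1 from 2.06 to 1.52, while RRM1 is at 1.12 and 1.14.

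Whether the cell lines differed in their response was tested by interaction terms over 11736 genes shared by symbol, at an adjusted p-value under 0.05. The 3 lines shared 1 estimate of the spread per gene in this fit, so the larger LNCaP spread also enters PC-3 against CT1258. A missing call there does not show that the responses were alike. Between PC-3 and LNCaP, 3 members differed after 12 h (19.6% of all genes) and 0 after 24 h (9.7%). At 24 h, 0 members had an unadjusted p-value under 0.05 in edgeR, where 2758 of all 11736 genes did. By limma voom with sample weights, 2 members were found at 24 h. TK1, DTYMK and DUT had a smaller log2 fold change in PC-3, with differences of -1.35 ± 0.37, -1.87 ± 0.44 and -0.65 ± 0.23 (edgeR adjusted p = 0.0124, 0.00419 and 0.0477). Without LNCaP 12 h replicate 2 these were -0.85, -1.07 and -0.81, and scaling by library size alone put DUT at an adjusted p of 0.0855 in edgeR. DUT also missed 0.05 when 1 sample was left out, in 8 of 26 fits. Between PC-3 and CT1258, DUT differed after 12 h (-0.89 ± 0.23, edgeR adjusted p = 0.00480; 30.1% of all genes), and DUT (-0.83 ± 0.23), GMPS (0.50 ± 0.16) and RRM2 (1.11 ± 0.32) differed after 24 h (21.2%). Without PC-3 DMSO replicate 3, 0 members passed 0.05 in either of these comparisons with CT1258.

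Between LNCaP and CT1258, 4 members differed after 12 h (40.2% of all genes) and 3 after 24 h (21.1%), all with the larger log2 fold change in LNCaP. DTYMK led with 2.60 ± 0.42 after 12 h (edgeR adjusted p = 5.71e-05), or 1.78 without LNCaP 12 h replicate 2, and 1.30 ± 0.42 after 24 h, where the call was lost in 5 of 26 fits without 1 sample. RRM2 differed by 1.30 ± 0.30 and 1.27 ± 0.30, CTPS1 by 0.66 ± 0.16 and 0.71 ± 0.16, and TK1 by 1.35 ± 0.35 after 12 h. The share of members that differed was below that of all genes for PC-3 against LNCaP after 24 h and for PC-3 against CT1258 after 12 h. RRM1 had differences between -0.08 and 0.12 in the 3 comparisons of cell lines after 12 h, each below its standard error of 0.21 to 0.22. Its largest difference after 24 h was 0.51 ± 0.22 between PC-3 and CT1258 (edgeR adjusted p = 0.101).

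Other enzymes of nucleotide metabolism had both higher and lower members. Among all genes tested in PC-3, 27.6% were DEG after 12 h and 19.3% after 24 h, with 13% and 8.88% higher. These shares were 44.3% and 33.8% in CT1258, with 22.2% and 16.6% higher. Whether the counts of the lists below differ from these shares was not tested. Of 10 further enzymes of de novo purine synthesis, 2 were DEG and higher in PC-3 at each time and 0 lower, and the median log2 fold change was 0.25 and 0.30. In CT1258, 7 of them were tested, of which 2 were higher and 2 lower after 12 h and 2 higher and 3 lower after 24 h. Of 7 enzymes of the thymidylate cycle and one-carbon folate supply, 2 were higher in PC-3 at each time, and 3 of the 5 tested in CT1258 were lower after 12 h. SHMT2, the mitochondrial serine hydroxymethyltransferase, fell in CT1258 after 12 h from a mean of 976 to 358 CPM (log2 fold change -1.45 ± 0.10, edgeR adjusted p = 4.02e-08). DHODH, which makes orotate for pyrimidine synthesis, fell there from 56.8 to 23.4 CPM (-1.28 ± 0.12, 8.74e-07).

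Of 11 other salvage enzymes and nucleotide kinases, 3 were lower and 0 higher in PC-3 after 12 h, with 2 lower after 24 h. Here 27.6% and 19.3% of all genes were DEG in PC-3, in either direction. APRT, which salvages adenine, fell in PC-3 from 229 to 116 CPM after 12 h (log2 fold change -0.99 ± 0.11, edgeR adjusted p = 8.08e-06) and in CT1258 from 81.4 to 34.7 CPM after 24 h (-1.23 ± 0.13, 4.55e-06). Of 9 genes of nucleotide breakdown and pool cleaning, 1 was higher in PC-3 at each time, and PNP, the purine nucleoside phosphorylase, fell in CT1258 after 24 h from 250 to 132 CPM (-0.92 ± 0.11, 8.38e-06). NUDT1, which removes oxidised purine nucleotides, rose in LNCaP after 12 h at 0.05 (2.46 ± 0.60, edgeR adjusted p = 0.0345) with 24.8, 121 and 32.3 CPM, where replicate 2 was the high value. Without that sample the rise was 1.41 (0.00829), and at 24 h the log2 fold change with all samples was 1.00 ± 0.58 (0.384). Of the nucleoside transporters, SLC29A2 fell in PC-3 after 12 h (-0.65 ± 0.13, edgeR adjusted p = 8.83e-04) and missed 0.001 at 24 h (0.00951). SLC29A1 rose in PC-3 by 0.93 ± 0.13 at 12 h and 0.82 ± 0.13 at 24 h (edgeR adjusted p = 3.76e-05 and 1.55e-04). Of 4 further de novo pyrimidine enzymes, 1 was higher in PC-3 at each time and 0 in LNCaP, where all 4 were tested at 0.05. In LNCaP, 4.52% and 1.35% of all genes were higher at 0.05.

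A list of E2F factors and S phase regulators held activators and also E2F7 and E2F8, which repress E2F targets, and the cohesion factor CDCA5. Of its 10 genes, 9 were DEG and higher in PC-3 after 12 h and 7 after 24 h, 7 and 4 were higher in LNCaP at 0.05 (10 and 9 without 12 h replicate 2), and 7 and 4 of 9 in CT1258. None was lower at these thresholds. The share of all genes higher at the same thresholds was 13% and 8.88% for PC-3, 4.52% and 1.35% for LNCaP, and 22.2% and 16.6% for CT1258. CCNE1, a cyclin of the G1 to S transition, rose in PC-3 after 12 h by 2.41 ± 0.24 (edgeR adjusted p = 2.75e-06) and CCNE2 by 1.70 ± 0.24. E2F8 rose in CT1258 from 11.3 to 44.6 CPM after 12 h (1.98 ± 0.14, edgeR adjusted p = 6.27e-08). MYBL2, a factor of cell cycle genes, rose in PC-3 after 24 h by 1.57 ± 0.10 and in LNCaP after 12 h by 2.36 ± 0.33 (edgeR adjusted p = 1.36e-07 and 0.00773). In LNCaP, MYBL2 had 198, 442 and 229 CPM after 12 h, with replicate 2 highest, and its rise was 1.92 without that sample and 1.58 ± 0.33 at 24 h with all samples (edgeR adjusted p = 0.0394).

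The S phase and G2/M genes of the Seurat package, with the 9 enzymes left out, were counted in the same way. Of 43 S phase genes, 25 and 28 were higher in PC-3 and 26 and 16 in LNCaP at 0.05, and of 39 in CT1258, 27 and 20 were higher, with 2 lower after 24 h. Of 54 G2/M genes, 15 and 15 were higher in PC-3, with 1 lower at each time, 31 and 12 were higher in LNCaP, and of 48 in CT1258, 37 and 43 were higher, with 1 lower after 12 h. These counts stand beside the shares of all genes just given, and in LNCaP they were 39 and 39 for S phase and 53 and 52 for G2/M without 12 h replicate 2, where 14.1% and 13.5% of all genes were higher. In PC-3 the median log2 fold change of the S phase genes (0.80 and 0.78) was above that of the G2/M genes (0.42 and 0.48). It was below in CT1258 (0.99 and 0.56 compared with 1.26 and 1.65) and in LNCaP (1.01 and 1.01 compared with 1.28 and 1.1). Whether these groups differ was not tested, and their part in the values of the 9 enzymes was not tested.

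The genes whose 6 log2 fold changes came closest to those of each enzyme were found among 8265 genes tested in every line, by the root mean square difference. For RRM1 these were POLA1 (0.117), a DNA polymerase subunit, FANCI (0.143) and TYMS (0.161), and for TYMS they were MCM8 (0.144), NCAPD3 (0.155) and RRM1. MYBL2 (0.163), TCF19 (0.253) and MCM10 (0.267) were closest to RRM2, and E2F1 (0.138), H2AFX (0.146) and SUV39H1 (0.153) to TK1. DUT came with RAD21 (0.115), SLIRP and MRPL15, DCK with CEP135 (0.116), MLF1IP and SUV39H2, and CTPS1 with MYO9B (0.0778), PDE4DIP and NASP. GMPS was closest to PEX3 (0.0878), E2F3 and PHF15, and DTYMK to POC1A (0.225), POLD1 and LRRC45. The 6 values of a gene come from 3 cell lines with shared controls, so this is a description.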

How the data were processed

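Poly(A)-enriched RNA was sequenced in single reads from all 3 cell lines. The authors mapped human reads to hg19 with STAR 2.3.1s and canine reads to CanFam3.1 with BWA, and deposited raw counts per gene, without normalization. Whether counting was strand-specific is not given in the sources used here. Of 27 labelled samples, 26 had counts, since the authors had excluded a PC-3 control. Trailing semicolons were stripped from the values of the third PC-3 24 h sample. For 2 PC-3 PDA-66 12 h samples, P12-1 and P12-2, the labels leave the replicate number open, so they entered by group.

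Each line was fitted with its 3 groups using R 4.3.3 and edgeR 4.0.16 (filterByExpr, TMM, quasi-likelihood F test), with Benjamini-Hochberg adjustment over all genes tested and a threshold of 0.001, and 0.05 for differences between cell lines. LNCaP was also read at 0.05. Tables were made with Python 3.11.15. CPM are counts scaled by TMM library sizes. The script was tested on simulated data, in which 200 genes were changed by 1 on the log2 scale. After 12 h it found 189 of them in PC-3, 190 in CT1258 and 20 in LNCaP. It found 63 for the response of PC-3 against LNCaP after 12 h and 24 between the DMSO samples. A missing call in these last comparisons or in LNCaP therefore does not show that a gene was unchanged. Per the study's methods, the replicates of a condition were prepared independently.

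The members and gene lists were chosen with earlier results of these data known. The genes named were the 9 enzymes, fixed partners of each, genes sharing their exons, up to 2 called genes per direction, line and time from the pathway lists, and the 3 nearest profiles of each enzyme. Some genes that this rule names are not reported here. Seurat 5.3.0 supplied the cell cycle lists. Gene positions came from the GENCODE annotation of GRCh37. Alternatives used limma 3.58.1, DESeq2 1.42.0, other filters, scalings and thresholds, a replicate block, thinned CT1258 controls and fits that left out 1 sample.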

Additional observations from a re-analysis of the deposited data

Results flagged for a closer look

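The response to PDA-66 differed between cell lines, by an interaction test in edgeR with an adjusted p-value under 0.05, for the following enzymes, given as differences of log2 fold changes. Between PC-3 and LNCaP after 12 h, these were DTYMK (-1.87), TK1 (-1.35) and DUT (-0.65), each with the smaller value in PC-3, where 19.6% of all genes differed. Between PC-3 and CT1258, they were DUT after 12 h (-0.89) and DUT (-0.83), GMPS (0.50) and RRM2 (1.11) after 24 h, where 30.1% and 21.2% of all genes differed. Without PC-3 DMSO replicate 3, 0 of these calls with CT1258 remained at either time. Between LNCaP and CT1258 after 12 h, they were DTYMK (2.60), TK1 (1.35), RRM2 (1.30) and CTPS1 (0.66), and after 24 h DTYMK (1.30), RRM2 (1.27) and CTPS1 (0.71), where 40.2% and 21.1% of all genes differed. DTYMK at 24 h lost its call in 5 of 26 fits without 1 sample. The values of DTYMK and TK1 after 12 h moved with LNCaP 12 h replicate 2 and were -1.07 and -0.85 between PC-3 and LNCaP, and 1.78 and 0.83 between LNCaP and CT1258, without it. Human and canine counts come from different mapping tools and gene models, so species and cell line cannot be told apart for CT1258.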

How the results depend on the processing

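The number of members with an adjusted p-value under 0.001 depended most on the test in LNCaP. There, 0 after 12 h and 0 after 24 h became 6 and 1 with the likelihood ratio test, 6 and 2 with DESeq2, 8 and 7 with limma voom, and 7 and 4 at 0.05. For the other tests and filters in this section, the share of all genes called was not counted. Larger counts under them therefore do not set the members apart from other genes. A combination chosen after seeing the data, without LNCaP 12 h replicate 2 and at 0.05, gave 9 and 9. In CT1258 after 12 h, 5 became 8 without a filter, with the likelihood ratio test, limma voom, DESeq2 and at 0.05. With a minimum change of 1 on the log2 scale, the counts after 12 h and 24 h were 2 and 3 in PC-3 and 1 and 2 in CT1258, and with only the groups compared they were 3 after 24 h in PC-3 and in CT1258. Between the times, 0 became 2 (voom) and 1 (0.05) in PC-3, and 3 and 2 in CT1258. Between the DMSO samples of PC-3 and LNCaP, 1 became 2 at 0.05 and 0 with the fold limit.

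For the responses of PC-3 against LNCaP, the 3 and 0 members became 5 and 2 with voom and 0 after 12 h at 0.001. For PC-3 against CT1258 after 12 h, 1 became 2 with DESeq2 size factors, no filter or the likelihood ratio test, 4 with voom and 0 at 0.001, and after 24 h 3 became 5 with voom and 0 at 0.001. For LNCaP against CT1258, 4 became 1 after 12 h and 3 became 0 after 24 h at 0.001, and 6 with voom after 24 h.

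Over the fits that left out 1 sample, the counts against DMSO ranged from 3 to 6 in PC-3 at both times, from 0 to 2 after 12 h and 0 to 0 after 24 h in LNCaP, and from 4 to 8 after 12 h and 3 to 6 after 24 h in CT1258. They ranged from 0 to 1 between the times in CT1258 and between the DMSO samples, from 2 to 5 and 0 to 2 for PC-3 against LNCaP, 0 to 4 and 0 to 5 for PC-3 against CT1258, and 4 to 6 and 2 to 6 for LNCaP against CT1258. The count moved by over 1.5 times without P12-2 or replicate 3 (PC-3 12 h, 3), without 24 h replicate 1 or 2 (PC-3 24 h, 3), without LNCaP 12 h replicate 2 (12 h, 2), without CT1258 DMSO replicate 2 (12 h, 8; between the times, 1), without DMSO replicate 1 or 3 or any 24 h sample of CT1258 (24 h, 3) and without PC-3 DMSO replicate 2 (DMSO samples, 0). For the responses, the lowest counts for PC-3 against CT1258 came without PC-3 DMSO replicate 3 (0 and 0), and the highest without LNCaP DMSO replicate 1 (5 after 24 h; 5 for PC-3 against LNCaP after 12 h; 6 for LNCaP against CT1258 after 24 h) or LNCaP 12 h replicate 2 (4 after 12 h; 2 for PC-3 against LNCaP and 6 for LNCaP against CT1258 after 24 h). Values near 0 changed sign, namely DUT in PC-3 after 12 h (-0.0057 with a filter of 1 CPM; -0.12 without DMSO replicate 2 and -0.018 without sample P12-1), DTYMK in PC-3 after 12 h (-0.057 without DMSO replicate 2) and CTPS1 in CT1258 after 24 h (0.0086 with voom; 0.036 without DMSO replicate 2). The causes were not tested.

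Samples with the same replicate number did not deviate together (correlations of -0.42 to 0.185), so the number was not taken as a pairing. A replicate block, in PC-3 possible for DMSO and 24 h only, gave 3 members there (TK1 and GMPS lost), 6 after 12 h in CT1258 (TK1 gained) and changed no other call. The small groups and the spread in LNCaP limit what a missing call can show.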
